A study of Mus musculus with 2 samples.

Results

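Mir137, Mir153, Mir132, Mir212, Mir383, Mir384 and Mir488 are 7 microRNA (miRNA) genes that are known from neurons and that each occupy a single place in the mouse genome. They were chosen by name, through their Ensembl identifiers, from the 1973 miRNA genes of the tables. The rule uses no measured value, though earlier results of these data were known when it was made. All 7 had a row in both tables. The tables describe small RNA (under 30 bases) from the neural tube of newborn mice of strain B6NCrl at postnatal day 0. They form 1 group of 2 libraries, each made from the single neural tube of a pup, and pup 2 and pup 1 came from 1 dam. Sex was not collected, and no treatment or genotype was compared, so the values describe the tissue and how far the pups differed.

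A miRNA is cut out of a hairpin precursor as a strand of little over 20 bases, which guides the Argonaute protein to messenger RNAs that pair with its seed, bases 2 to 8 from the 5′ end. The targets are then translated less or degraded. In the nervous system miR-137 is known as a regulator of neuronal maturation and synapses, and miR-153 as a regulator of proteins of the synaptic vesicle machinery. miR-132 and miR-212 are produced together from a locus that the transcription factor CREB induces upon neuronal activity, and miR-132 is known to promote neurite growth.

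The mature sequences are shown because they decide which miRNAs share a seed and how far the counts of related genes can be told apart. RefSeq's table for build GRCm38.p6, which is mm10, held 6 of the 7 genes, and Mir383 is named only. The arm best known for each gene is given 5′ to 3′, with the seed in capitals.
miR-137-3p: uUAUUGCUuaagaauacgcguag
miR-153-3p: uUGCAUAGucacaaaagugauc
miR-132-3p: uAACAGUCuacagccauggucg
miR-212-3p: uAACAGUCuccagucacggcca
miR-384-5p: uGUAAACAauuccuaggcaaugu
miR-488-3p: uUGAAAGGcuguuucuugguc
Among the members, miR-132-3p and miR-212-3p shared a seed and the other 4 of these strands each had a seed of their own. Over all 12 mature strands of the 6 genes there were 11 distinct seeds.

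The 2 strands with a shared seed were equal at 17 of 22 bases, and the first 9 bases from the 5′ end were the same. Counted from 1 at the 5′ end, with the base of miR-132-3p first, they differed by A10C, C14U, U17C, U20C and G22A. Their hairpins are shown with both mature strands in capitals, since a read from either arm counted towards the gene.
Mir132 hairpin: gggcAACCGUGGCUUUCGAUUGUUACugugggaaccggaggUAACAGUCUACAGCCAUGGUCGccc
Mir212 hairpin: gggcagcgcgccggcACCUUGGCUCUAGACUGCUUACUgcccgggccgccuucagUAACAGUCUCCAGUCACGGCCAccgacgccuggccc
No hairpin of the 6 genes shared a stretch of 22, 20 or 18 bases with any other of the 1005 hairpins in the table, the pair of Mir132 and Mir212 included. The Mir212 hairpin was rich in G and C at 69.2%, the Mir132 hairpin had 57.6%, and the Mir384 hairpin had 33.0%, against a median of 51.7% over all hairpins.

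Levels are given as CPM, a gene's own-strand count divided by all own-strand counts of the library and multiplied by 1000000. The own-strand total was 3660693 counts in pup 2 and 3216453 in pup 1, so 1 count was worth 0.273 CPM in pup 2 and 0.311 CPM in pup 1. A read spans the whole mature miRNA, so counts were not divided by gene length, and intervals cover counting error only. Differences between genes in how well their RNA is captured in a library were not measured. Reads that fitted several places, 35.4% of all reads in pup 2 and 35.7% in pup 1, were counted to no gene. Genes with several copies can lose reads this way, so ranks and shares among all genes may favour members of 1 locus each.

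Both pups had at least 10 counts for each of the 7 genes, which is called detected here, and together the genes held 2.13% ± 0.18 of the own-strand counts (SD, n = 2). The share was 2.25% in pup 2 and 2.00% in pup 1. Most of it belonged to Mir137, which made up 75.6% ± 0.74 of the members' counts, while the other 6 genes held 0.519% ± 0.027 of all own-strand counts. No member had a count on the opposite strand in either pup, which allows up to 3 counts, or 0.820 CPM in pup 2 and 0.933 CPM in pup 1.

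**Figure D1:**
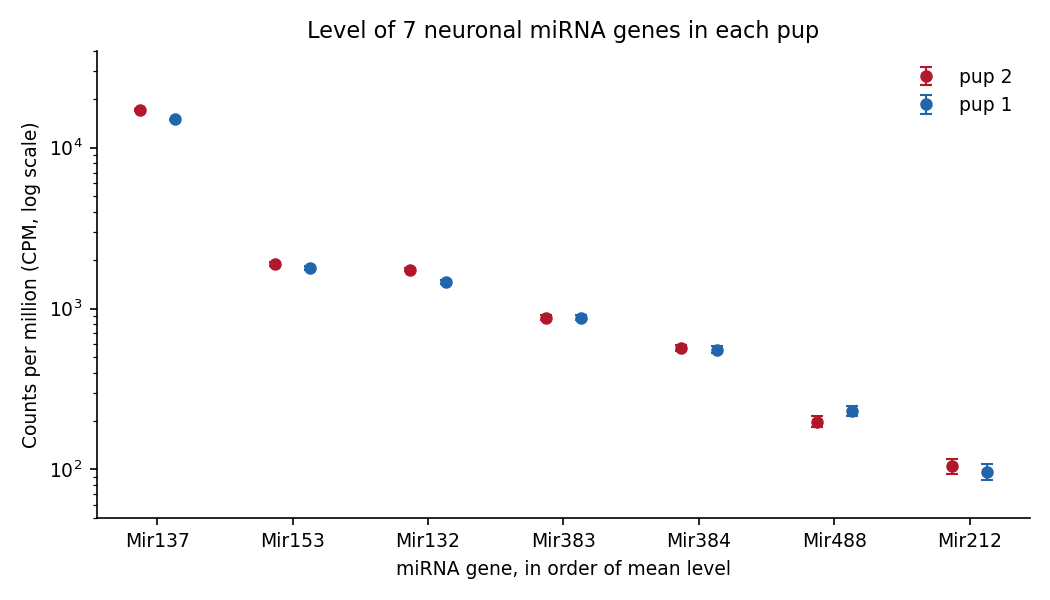
Level of each of the 7 genes (CPM, log scale) in pup 2 (red) and pup 1 (blue), with bars for the exact 95% Poisson interval of the count. Mir137 stood at 17125 CPM in pup 2 and 15026 CPM in pup 1, far above the other 6 genes, and the order of the genes was the same in both pups.

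Mir137 (ENSMUSG00000065569) was the most abundant of the 7. It had 62690 counts in pup 2 and 48332 in pup 1. This is 17125 CPM in pup 2 (95% Poisson interval 16991 to 17260) and 15026 CPM in pup 1 (14893 to 15161). Its mean of 16076 CPM ± 1484 (SD, n = 2) placed it at rank 11 of all genes. It lay 8.75-fold above the next member, Mir153, by 3.13 on the log2 scale. The limit, set by how far genes of like abundance differed between the pups, was 0.32. In mm10, the build of all positions given, the gene lies at chr3:118433857-118433929 on the plus strand, where the GENCODE M21 annotation also places an exon of Gm26871, a noncoding gene. The nearest protein-coding gene, Dpyd, is 128199 bases away. The annotated miRNA gene Gm24155, 791 bases from Mir137 on the same strand, had 1 count in pup 2 and 0 in pup 1.

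Mir153 (ENSMUSG00000065538) followed with 6921 counts in pup 2 and 5743 in pup 1. These counts equal 1891 CPM (1846 to 1936) in pup 2 and 1786 CPM (1740 to 1832) in pup 1, a mean of 1838 CPM ± 74.3 at rank 68. Mir153 lies at chr12:117250817-117250885 on the plus strand, in an intron of Ptprn2, the gene of a dense-core vesicle protein of neurons and endocrine cells, on the same strand as its host. A noncoding gene, Gm5441, runs across it on the other strand, but no opposite-strand count was found.

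The Mir132 and Mir212 genes lie 203 bases apart on the plus strand of chromosome 11, in an intron of the noncoding gene 1700016P03Rik. Mir212 (ENSMUSG00000065590) comes first, at chr11:75173388-75173478, and Mir132 (ENSMUSG00000065537) second, at chr11:75173682-75173747. Mir132 had 6396 counts in pup 2 and 4688 in pup 1, or 1747 CPM in pup 2 (1705 to 1791) and 1458 CPM in pup 1 (1416 to 1500), a mean of 1602 CPM ± 205 at rank 78. Mir212 had 382 counts in pup 2 and 309 in pup 1, or 104 CPM in pup 2 (94.1 to 115) and 96.1 CPM in pup 1 (85.7 to 107), a mean of 100.2 CPM ± 5.86 at rank 212. Mir132 was higher in pup 2 with intervals that did not overlap, while those of Mir212, the lowest of the 7, did.

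A ratio of the 2 genes within a library does not depend on how the libraries are scaled. Mir132 had 16.7 counts for each count of Mir212 in pup 2 (exact 95% binomial interval 15.1 to 18.6) and 15.2 in pup 1 (13.5 to 17.1). The intervals overlapped, and a difference between the pups in this ratio was not tested. Mir132 supplied 94.4% of the locus's counts in pup 2 and 93.8% in pup 1. The counts of a gene sum both arms, so the ratio is between the genes and not between the 2 strands that share the seed.

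Mir384 (ENSMUSG00000065499) lies at chrX:105344282-105344369 on the minus strand, overlapping no other annotated gene. It had 2076 counts in pup 2 and 1784 in pup 1, or 567 CPM in pup 2 (543 to 592) and 555 CPM in pup 1 (529 to 581), with overlapping intervals and a mean of 561 CPM ± 8.81 at rank 115. Mir325, another miRNA gene of the same strand, lies 34712 bases away and stood at 365 CPM in pup 2 and 410 CPM in pup 1.

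Within the table, the seed of miR-384-5p was also found in miR-30a-5p, miR-30c-5p and miR-30e-5p, strands of the miR-30 family, which is used in many tissues. Beyond the seed the sequences part, as the 2 most abundant of these show.
miR-30a-5p: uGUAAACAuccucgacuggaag
miR-30e-5p: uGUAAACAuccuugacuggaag
The first 8 bases of miR-384-5p were the same as in each of the 3 strands, and 11 or 12 bases were equal over their whole length. Mir30e stood at 17485 CPM ± 2254 (SD, n = 2) and Mir30a at 8448 CPM ± 808. Mir30c-1 (45.7 CPM ± 7.47) and Mir30c-2 (38.3 CPM ± 2.26) make the same mature strand, so part of its reads may be among those that fitted several places. Mir30d and Mir30b belong to the same family, but the table gave no strand of either with this seed. Since the table also lacked Mir383, this does not show that their strands have another seed. Mir30d stood at 7629 CPM in pup 2, against 6910 CPM in pup 1. For Mir30b the level was 178 CPM in pup 2 and 278 CPM in pup 1. Mir30e, Mir30a and Mir30d thus each had more counts than Mir384, both arms included. No other mature strand among the 1738 in the table had the seed of miR-137-3p, miR-153-3p or miR-488-3p.

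Mir383 and Mir488 lie in introns of protein-coding genes, on the strand of the host. Mir383 (ENSMUSG00000065457), at chr8:38252133-38252202 on the minus strand in Sgcz, the gene of zeta-sarcoglycan, had 3212 counts in pup 2 and 2818 in pup 1. Its level was 877 CPM (847 to 908) in pup 2 and 876 CPM (844 to 909) in pup 1, a mean of 877 CPM ± 0.93 at rank 101. Mir488 (ENSMUSG00000070103), at chr1:158505625-158505733 on the plus strand in Astn1, the gene of a neuronal adhesion protein of glia-guided migration, had 726 counts in pup 2 and 742 in pup 1. Its level was 198 CPM (184 to 213) in pup 2 and 231 CPM (214 to 248) in pup 1, a mean of 215 CPM ± 22.9 at rank 170. Mir383 was nearly equal in the pups, whereas the intervals of Mir488 did not overlap.

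**Figure D2:**
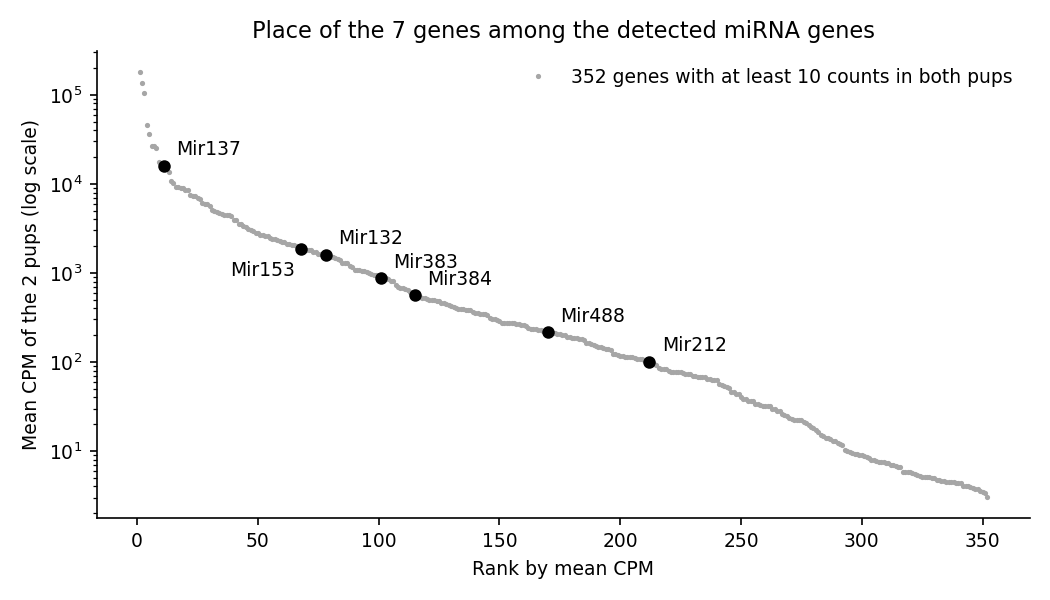
Mean CPM (log scale) of the 352 genes with at least 10 counts in both pups, in order of rank, with the 7 genes in black. They spread from rank 11 (Mir137) to rank 212 (Mir212) and did not sit together. Genes with several copies may be ranked too low, since their shared reads were not counted.

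From the top, the order of levels was Mir137, Mir153, Mir132, Mir383, Mir384, Mir488 and Mir212. The spread was taken as the normal 95% limit of the SD of log2(CPM + 1) between the pups, pooled within 4 classes of abundance. Of the 6 neighbouring pairs in the order of levels, 5 differed beyond this spread. Mir153 and Mir132 did not: they were 1.15-fold apart, by 0.20 on the log2 scale against a limit of 0.32. Below the step from Mir137 to Mir153, the steps beyond the spread lay between 1.56-fold, Mir383 over Mir384, and 2.61-fold, Mir384 over Mir488. Of the 7 genes, 6 lay above the median detected gene, which had 200.5 CPM, and only Mir212 lay below it.

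The genes whose values in the 2 libraries were nearest to those of each member, by Euclidean distance in log2(CPM + 1), came from several families. Mir137 was nearest to Mir30e (distance 0.18) and Mir100 (0.20). Mir153 was nearest to Mirlet7f-2 (0.09) and Mir323 (0.10), and Mir132 to Mir301 (0.12) and Mir16-1 (0.13). For Mir383 they were Mir532 (0.06) and Mir188 (0.14), and for Mir384 Mir195a (0.12) and Mir101a (0.15). Mir488 was nearest to Mir1251 (0.09) and Mir150 (0.12), and Mir212 to Mir24-2 (0.07) and Mir877 (0.10). With 2 libraries this likeness is mostly one of level. For genes with several copies, such as Mir16-1, shared reads were not counted, so the likeness is not one of mature miRNA levels.

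For each gene with at least 10 counts summed over the pups, pup 2's count was tested against its share of the own-strand totals (exact binomial test, two-sided), with Benjamini-Hochberg adjustment over all 413 such genes. The test compares 2 libraries and covers counting error only. In bulk tissue fewer cells of a type and less miRNA per cell cannot be told apart. Of the 7 members 4 were called different at an adjusted p of 0.05, 3 higher and 1 lower in pup 2. Over all genes tested 40.4% were called, 25.4% higher and 15.0% lower in pup 2. That set holds many genes of low count, where a test of counting error calls few. With a minimum of 50 counts summed, 172 of 311 genes were called, with the same 4 members among them. Log2 ratios of pup 2 over pup 1 had a median of 0.08 over the members and 0.04 over all genes tested.

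Mir132 had the largest ratio of the 7. Its 1747 CPM in pup 2 lay 1.20-fold above its 1458 CPM in pup 1, a log2 ratio of 0.26 (exact 95% interval 0.21 to 0.32, adjusted p = 2.72e-20). Mir137 was 1.14-fold higher in pup 2, with a log2 ratio of 0.19 (0.17 to 0.21, exact test, adjusted p = 1.65e-102). This interval was the narrowest of the 7, on the highest count.

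Mir153 had a log2 ratio of 0.08 (0.03 to 0.13, exact test, adjusted p = 0.00423). This call was lost with other library scalings, where the log2 ratio was 0.04 and the adjusted p of the exact test was 0.208 with TMM and 0.214 with DESeq2 size factors. With a total that leaves out Mir10b, the most abundant gene, the adjusted p of the exact test was 0.0569. Mir488 was the member called lower in pup 2, with a log2 ratio of -0.22 (-0.37 to -0.07, exact test, adjusted p = 0.0117). Mir488's part of the members' summed count was 0.881% in pup 2, against 1.15% in pup 1. This share also depends on Mir137, which made up most of that sum and was higher in pup 2.

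Mir212, Mir384 and Mir383 were not called. Mir212 had a log2 ratio of 0.12 with a wide interval of -0.10 to 0.34, which takes in the ratio of its neighbour Mir132. The intervals of Mir384 (log2 ratio 0.03, -0.06 to 0.12) and Mir383 (0.00, -0.07 to 0.08) were narrower.

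The members' ratios were also set against the spread among genes of like abundance, in classes of 88 detected genes. In the most abundant class the SD of the log2 ratio over genes was 0.23. Mir132, at 0.26, lay beyond this SD, and 16 of the 88 genes of the class had a larger absolute ratio. For Mir137 the number was 30, and for Mir153 it was 61. In the next class, with an SD of 0.29, the number was 29 for Mir488, 80 for Mir384 and 87 for Mir383. Mir212 lay in a class with an SD of 0.33, where 62 genes had a larger absolute ratio.

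**Figure D3:**
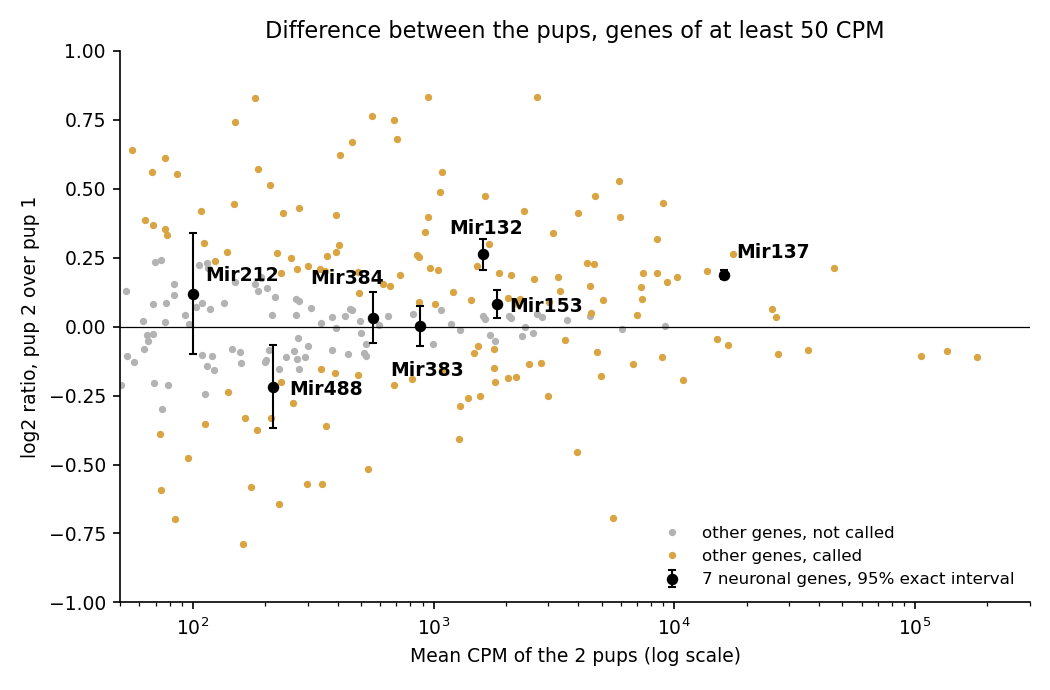
Log2 ratio of pup 2 over pup 1 against mean CPM (log scale) for the 245 genes tested with a mean of at least 50 CPM. The 7 genes (black, bars for the exact 95% interval) lie between -0.22 (Mir488) and 0.26 (Mir132), inside the range of the other genes.

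Other miRNA genes known from neurons gave the setting. Of a list of 41 entries, 39 were measured and 33 were detected, with mean levels from 9.94 to 36092 CPM and a median of 459 CPM. Of the 2 entries not measured, 1 was a host gene of Mir124a-2 and not a miRNA gene. Mir487b (36092 CPM ± 1520), Mir149 (10240 CPM ± 897) and Mir135b (4482 CPM ± 80.8) led the list (SD, n = 2). Mir137 had 1 of the 33 above it, Mir153 had 7, Mir132 had 9, Mir383 had 12 and Mir384 had 15. Below these, Mir488 had 23 and Mir212 had 29 above it. The list holds families with several gene copies, such as Mir124a and Mir9, whose shared reads were not counted, so the counts of such genes do not give the level of the mature miRNA.

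Among the 35 list genes tested between the pups, 12 were called higher and 9 lower in pup 2, and 14 were not called. Over all 413 genes tested, 40.4% were called, 25.4% higher and 15.0% lower in pup 2. With a minimum of 50 counts summed, 172 of 311 genes were called. The extremes among those called were Mir124a-1 (log2 ratio 1.11, on 50 counts in pup 2 and 20 in pup 1) and Mir129-1 (-0.79). The list's median log2 ratio was 0.09, against 0.04 over all genes tested.

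**Figure D4:**
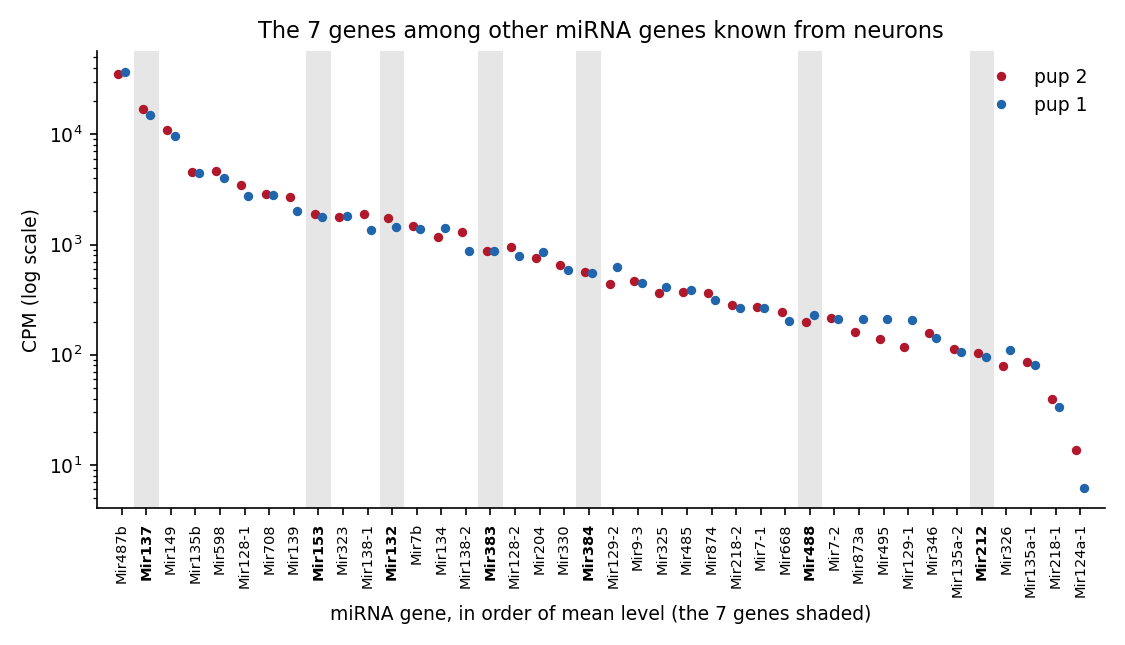
CPM (log scale) in pup 2 (red) and pup 1 (blue) of the 7 genes (shaded, bold names) and the 33 other detected miRNA genes known from neurons, in order of mean level. Mir137 is second to Mir487b, and Mir212 lies near the lower end.

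Markers of position and of other cells also differed between these libraries. Of all genes tested, 25.4% were called higher and 15.0% lower in pup 2. The 6 miRNA genes of the Hox clusters, which mark the spinal cord and hindbrain, were all detected. Their summed level was 315635 CPM in pup 2, against 341325 CPM in pup 1, with all 6 called lower in pup 2. Most of this sum was Mir10b (log2 ratio -0.11) and Mir10a (-0.09), whose high counts let small differences be called. The other Hox genes had log2 ratios from -0.18 (Mir615) to -0.69 (Mir196b). The 3 genes of the sensory miR-183 cluster summed to 5392 CPM in pup 2 and 3233 CPM in pup 1, with all 3 called higher in pup 2. Oligodendrocyte genes (3 of 3 detected) summed to 2220 CPM in pup 2, against 1854 CPM in pup 1, with 2 called higher in pup 2. Mir219a-1 was not called (log2 ratio -0.03). Endothelial Mir126a stood at 26007 CPM in pup 2 and 27838 CPM in pup 1.

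Smooth muscle and mesenchyme genes (4 of 5 detected) summed to 7852 CPM in pup 2 and 7447 CPM in pup 1, with 3 called higher in pup 2. Most of this sum was Mir143 (log2 ratio 0.04), while Mir214 had a log2 ratio of 0.67 and Mir199a-2 one of 0.87. Mir145a went the other way and was not called (log2 ratio -0.12). Leukocyte genes (2 of 2 measured) summed to 423 CPM in pup 2, against 362 CPM in pup 1, with Mir223 called higher in pup 2 (log2 ratio 0.57) and Mir150 not called (-0.09). Of the red blood cell genes, Mir451a and Mir144 summed to 152 CPM in pup 2, against 128 CPM in pup 1. Mir451a was called higher in pup 2 (log2 ratio 0.42), while Mir144 was not called (-0.32). The list also held the name Mir486a, which was not found, so Mir486 stayed out of this sum. Mir486 was detected, with 59 counts in pup 2, against 31 in pup 1, and was not called (log2 ratio 0.73). Skeletal muscle genes (1 of 5 measured detected, Mir206) summed to 105 CPM in pup 2, against 70.6 CPM in pup 1, with Mir206 called higher in pup 2 (log2 ratio 0.55). Mir1a-1, Mir133a-1 and Mir133a-2 had 0 counts in both pups. They belong to families with several gene copies, whose shared reads were not counted, so a 0 there does not show that the miRNA was absent. Mir122 of liver had 64.2 CPM in pup 2 and 104 CPM in pup 1. The part of these cell types in the members' differences was not tested.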

How the data were processed

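Each deposited table gives the authors' raw counts of reads for every miRNA gene, without respect to strand, on its own strand and on the other one. Its columns carry no names and were read from their values, since those of the separate strands add up to the unstranded one. The build was mm10 and the annotation GENCODE M4, per the text deposited with the tables. Which aligner and counter were used is not given in the sources used here. Read classes that name no gene stayed out of the totals (35.4% multimapping and 11.0% unmapped in pup 2, 35.7% and 10.8% in pup 1).

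Own-strand counts were used. GENCODE M21, an annotation of that build, supplied symbols and positions for 1894 of 1973 identifiers. CPM, mean and SD were computed over 2 libraries of 1 group. An edgeR test between the pups has no replicates to rest on, so an exact binomial test was used. Its p is the doubled smaller tail, and 0.5 was added to counts in log2 ratios. The test was tried on simulated counts that held counting error only. That trial cannot show how it behaves with further spread between pups. The pups were littermates with 1 library each, so technical and biological spread cannot be told apart.

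The genes named are the 7 members, the 2 nearest genes of each, genes that share a seed in RefSeq's table, and the 3 highest of the list of neuronal genes. Mir124a-1, Mir129-1, Mir325, Gm24155, Mir30b, Mir30d and the marker genes were named after their values were seen. The members and lists were chosen with earlier results of these data known. Alternatives were TMM (edgeR 4.0.16) and DESeq2 1.42.0 scaling, other totals, count minimums, pseudocounts, classes of abundance, either-strand counts and leaving out each pup. Scripts ran in R 4.3.3 and Python 3.11.15 (scipy 1.17.1, numpy 2.4.6, pandas 2.3.3, matplotlib 3.10.9).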

Additional observations from a re-analysis of the deposited data

How the results depend on the processing

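The share of own-strand counts held by the 7 genes was 2.59% with a total that leaves out Mir10b, the most abundant gene, and 1.08% of all reads of the library, both by construction of the other total. Mir153 was no longer called with TMM, with DESeq2 size factors or without Mir10b, which left 3 of the 4 calls, and Mir132, Mir137 and Mir488 were called under each of these. None of the 4 calls reached 1.5-fold, a rule that left 0 members and 31 of the 413 genes tested. The near-zero log2 ratio of Mir383 changed sign, to -0.039 with either scaling and -0.022 without Mir10b, and that of Mir384 to -0.0090 with TMM and -0.0093 with DESeq2 size factors. Neither gene was called under any of these. An exact p that sums all outcomes no more likely than the one seen, added after seeing the data, left the same 4 members called and 169 genes in all. The median log2 ratio of all genes tested was 0.00 with either scaling, against 0.04. The 5 pairs of neighbours beyond the spread were the same under each of the 4 alternatives tried. Leaving out a pup moves a mean of 2 by less than its SD by construction, so it says nothing of stability. With 1 group, no paired analysis was possible because there are no groups to pair. Counts of Mir212 limit its ratio to the interval given in the report.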
